A study of Mus musculus with 14 samples.

Results

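The 39 genes described here are imprinted mouse genes in 20 domains, taken from a list and located by their RefSeq coordinates. All 39 symbols were found among the 34614 protein-coding and long non-coding RNA genes of the mm10 annotation, and 7 of the 39 are long non-coding RNAs. Each gene was read with 5 kb on either side, and a region of a list that touched this window was counted for the gene. The windows are longer than most, since the median gene length was 38.3 kb against 12.8 kb over all genes.

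At an imprinted gene, the copy from one parent is expressed and the copy from the other parent is silent. The choice is set by an imprinting control region (ICR), a stretch of DNA methylated on one parental copy in the germ line. In embryonic stem cells the methylated copy of an ICR is bound by the zinc finger proteins ZFP57 and ZFP445, which bring TRIM28 and the methyltransferase SETDB1 and so H3K9me3, a mark of silent chromatin, while the unmethylated copy can carry H3K27ac, a mark of active promoters and enhancers. A sum over both copies can therefore show both marks at one place.

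The data were lists of enriched regions from ChIP-seq of E14 cells, a male mouse embryonic stem cell line, grown on gelatin with serum, LIF and inhibitors of MEK and GSK3. Cells received 1 µM doxorubicin, which traps topoisomerase II on cut DNA, or DMSO vehicle for 6 h, then drug-free medium for another 6 h. H3K27ac and H3K9me3 were each measured after vehicle and after doxorubicin, HA-tagged p53 and an untagged HA control gave 1 list each with no treatment in their titles, and the input came from doxorubicin-treated cells. All 14 libraries came from this one line, and each of the 7 lists had been called on 2 libraries pooled, so no value below has a replicate check and no test between treatments was possible. The lists do not separate the parental copies, DNA methylation was not measured, and growth with a MEK inhibitor is known to lower it.

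Depth was 20647895 fragments for H3K27ac after vehicle and 17036528 after doxorubicin, 15992125 and 14402634 for H3K9me3, 45238471 for p53, 49588950 for the untagged control and 16583331 for the input. A level is given as the pileup, the number of fragments over the highest summit of a region, followed by that number per 1000000 fragments of the list (fpm). The faintest listed regions had 7 to 9 fragments in the histone lists, so a gene absent from a list may hold signal below that. A ratio is the fpm after doxorubicin over that after vehicle, called higher or lower past 1.5-fold, with an exact 95% interval (Clopper-Pearson) that covers counting error only. Over all regions found in both treatments the median log2 ratio was 0.16 for H3K27ac and 0.34 for H3K9me3. All 8 embryonic stem cell genes checked (Pou5f1, Sox2, Nanog, Klf4, Esrrb, Zfp42, Tfcp2l1 and Dppa5a) carried H3K27ac in both treatments, at 4.31 to 11.8 fpm after vehicle. Of 8 fibroblast genes, 2 were listed after vehicle and 4 after doxorubicin, at no more than 2.37 fpm. Dcn, Postn, Col3a1 and Col1a2 were in neither list. Primitive endoderm genes were listed for 4 of 4 after vehicle (0.533 to 1.02 fpm) and 3 of 4 after doxorubicin (0.763 to 1.58 fpm). Trophoblast genes were listed for 3 of 4 in each treatment, at 0.581 to 1.45 fpm after vehicle and 0.587 to 1.70 fpm after doxorubicin. Of all genes, 60.8% were listed after vehicle and 68.1% after doxorubicin. The part of these markers in the values below was not tested.

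Promoter sequences are shown for 6 genes on which the results below turn, as the 250 bases before an annotated start in RefSeq (GRCm38.p6, 5′ to 3′ on the gene's strand), chosen after their values were seen. Capitals mark TGCCGC or its reverse complement GCGGCA, the letters that ZFP57 binds when methylated. Peg3 (chr7:6730420-6730669, minus strand) and Kcnq1ot1 (chr7:143296548-143296797, minus strand) had strong H3K27ac at the start that was lower after doxorubicin. Meg3 (chr12:109540746-109540995, plus strand) carried less H3K27ac at its start and more downstream, and Plagl1 (chr10:13090582-13090831, plus strand) lies upstream of a body region with less. Nap1l5 (chr6:58907127-58907376, minus strand) had H3K27ac after doxorubicin only. The furthest upstream start of Igf2 (chr7:142666817-142667066, minus strand) was the only one of the promoters matched that H3K9me3 touched, and only after doxorubicin. A vehicle H3K9me3 region overlapped that doxorubicin region but ended short of the promoter.
Peg3: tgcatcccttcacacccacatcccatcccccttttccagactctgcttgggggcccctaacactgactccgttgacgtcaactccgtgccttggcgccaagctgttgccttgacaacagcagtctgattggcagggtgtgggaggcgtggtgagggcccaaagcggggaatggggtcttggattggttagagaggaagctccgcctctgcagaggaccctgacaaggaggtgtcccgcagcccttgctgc
Kcnq1ot1: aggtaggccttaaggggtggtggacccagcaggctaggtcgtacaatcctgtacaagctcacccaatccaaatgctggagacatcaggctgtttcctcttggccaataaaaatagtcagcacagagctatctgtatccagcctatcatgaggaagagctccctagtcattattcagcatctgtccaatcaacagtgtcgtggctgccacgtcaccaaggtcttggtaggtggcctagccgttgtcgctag
Meg3: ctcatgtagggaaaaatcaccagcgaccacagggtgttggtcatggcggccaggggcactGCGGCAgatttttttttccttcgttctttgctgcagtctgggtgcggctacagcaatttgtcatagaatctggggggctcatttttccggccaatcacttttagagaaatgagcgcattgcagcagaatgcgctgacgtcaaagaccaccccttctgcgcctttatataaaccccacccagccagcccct
Plagl1: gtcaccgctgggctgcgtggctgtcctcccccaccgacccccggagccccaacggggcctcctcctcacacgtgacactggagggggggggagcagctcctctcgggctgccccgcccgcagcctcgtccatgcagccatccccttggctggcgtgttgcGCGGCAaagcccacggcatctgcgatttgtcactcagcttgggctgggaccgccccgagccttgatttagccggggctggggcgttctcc
Nap1l5: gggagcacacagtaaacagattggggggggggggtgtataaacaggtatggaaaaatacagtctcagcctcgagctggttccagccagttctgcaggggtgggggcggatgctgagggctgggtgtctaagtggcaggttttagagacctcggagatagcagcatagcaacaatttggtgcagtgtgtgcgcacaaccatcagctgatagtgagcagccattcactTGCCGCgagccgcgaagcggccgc
Igf2: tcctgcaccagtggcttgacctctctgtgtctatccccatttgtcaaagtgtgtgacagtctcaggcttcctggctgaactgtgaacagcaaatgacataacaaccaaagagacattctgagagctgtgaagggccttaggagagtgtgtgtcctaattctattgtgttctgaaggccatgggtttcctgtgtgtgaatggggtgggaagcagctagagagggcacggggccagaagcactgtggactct
The capitals appear once each in Meg3, Plagl1 and Nap1l5 and are absent from these 250 bases of Peg3, Kcnq1ot1 and Igf2. In windows of 300 bases, 50 of them after the start, the motif on either strand was in 11 of 47 promoters of the 31 members matched in RefSeq (23.4%) and in 11.6% of all 32851 promoters. The median CpG count in that window was 14 for the members and 7 for all promoters. Cdkn1c, H19, Impact, Kcnq1, Peg10, Peg13, Sgce and Trappc9 had no entry.

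H3K27ac was present at most imprinted genes in both treatments. It was listed for 34 of 39 after vehicle, where 60.8% of all genes had it, and for 35 of 39 after doxorubicin, against 68.1%. Longer genes were listed more often, and giving each member the share found in genes of its length class would sum to 25.0 and 27.7 members. The mark was in both lists for 33 genes. Magel2, which encodes a protein of the MAGE family, and Nap1l5, a retrogene in an intron of Herc3, were listed after doxorubicin only, as were 9.96% of all genes, with 12 and 10 fragments (0.704 and 0.587 fpm). Ndn, the gene of the MAGE protein necdin, was listed after vehicle only, as were 2.73% of all genes, with 13 fragments (0.630 fpm). These 3 values are near the lowest that a list holds. Neither list held H3K27ac for Igf2, the growth factor, Slc22a3, a cation transporter imprinted in placenta, or Rasgrf1, a Ras exchange factor of the brain. These genes did have H3K9me3, so 0 of 39 were without a histone region, against 20.2% of all genes. That share is not adjusted for gene length.

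**Figure D1:**
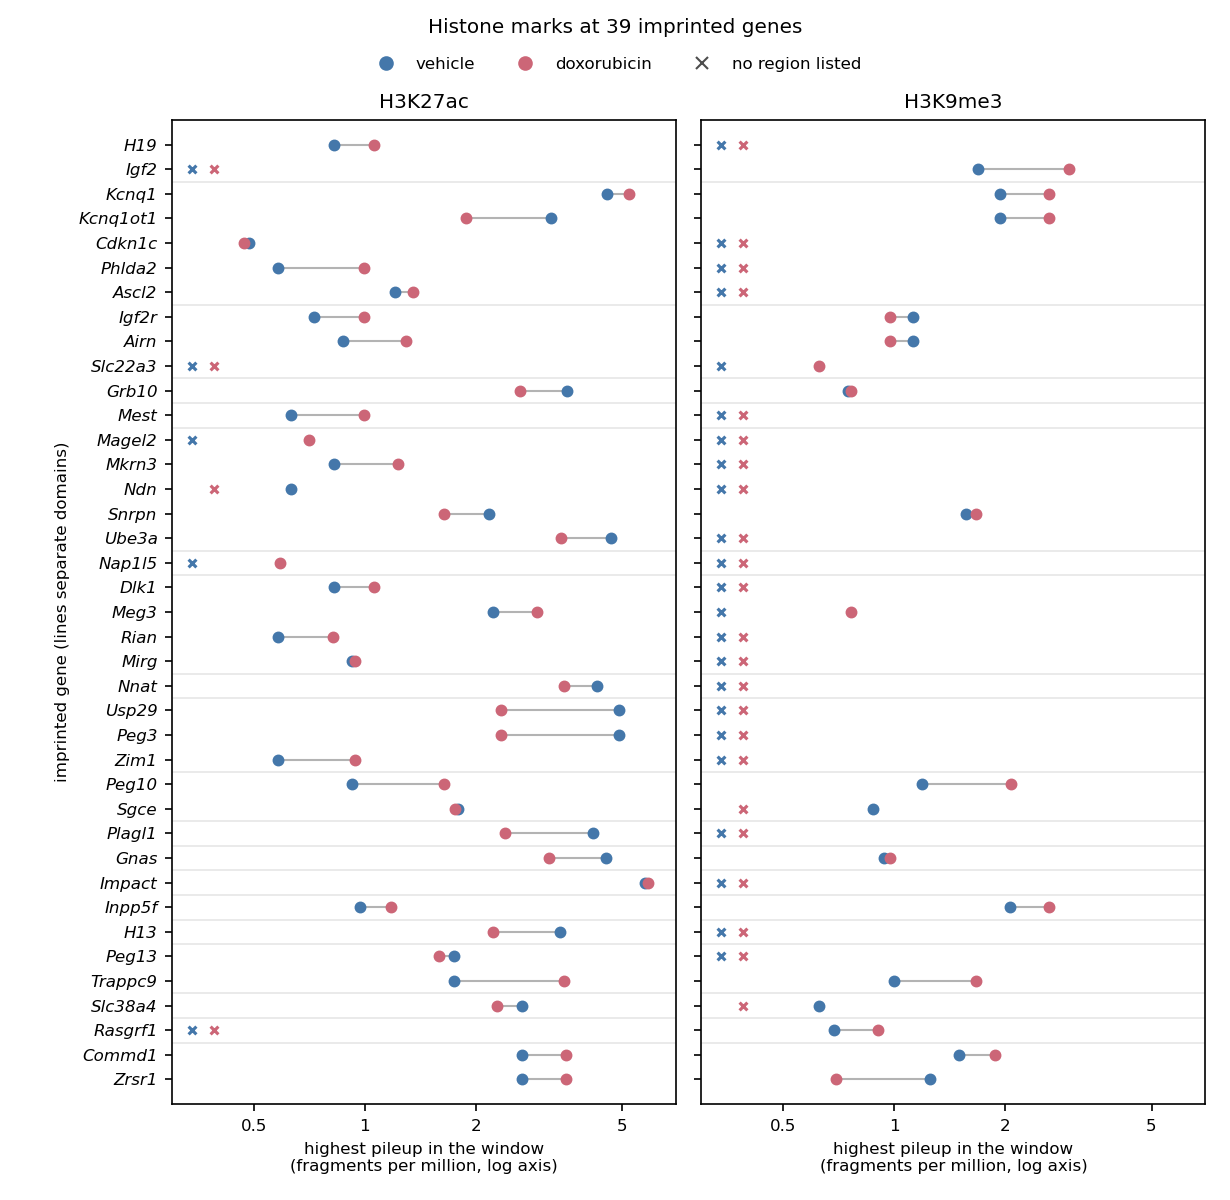
Highest pileup of H3K27ac (left) and H3K9me3 (right) in the window of each of the 39 imprinted genes, in fpm on a log axis; blue points are vehicle, red points doxorubicin, and crosses mark genes with no region in that list. H3K27ac is seen at 34 genes after vehicle and 35 after doxorubicin, from below 0.5 to above 5, while H3K9me3 is seen at 16 in each and does not pass 3; each point is 1 pooled list, so no error bar is drawn.

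Levels of H3K27ac after vehicle spanned 0.484 to 5.76 fpm across the genes, while ratios between treatments spanned 0.480 to 1.99. After vehicle the highest level was at Impact, a regulator of translation, with 119 fragments (5.76 fpm), followed by Usp29 and Peg3 with 101 (4.89 fpm), Ube3a with 96 (4.65 fpm), Kcnq1 with 94 (4.55 fpm) and Gnas with 93 (4.50 fpm). The order of these levels has no replicate check. Impact had 100 fragments after doxorubicin (5.87 fpm, ratio 1.02, interval 0.773 to 1.34), and Kcnq1, a potassium channel gene, had 89 (5.22 fpm, ratio 1.15, interval 0.849 to 1.55). The ubiquitin ligase gene Ube3a had 58 (3.40 fpm, ratio 0.732, interval 0.519 to 1.02). Gnas, which encodes a stimulatory G protein subunit, had 54 (3.17 fpm, ratio 0.704, interval 0.494 to 0.995). At the other end, the cell cycle inhibitor gene Cdkn1c had 10 fragments after vehicle and 8 after doxorubicin (0.484 and 0.470 fpm), where 8 is the lowest pileup of the doxorubicin list.

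H3K27ac was at least 1.5-fold lower after doxorubicin at 5 of the 33 genes listed in both treatments (15.2%), against 10.5% of the 20109 genes so listed. The 5 are Peg3, Usp29, Kcnq1ot1, Plagl1 and H13, and each had at least 3 fpm after vehicle. Peg3, a zinc finger gene expressed from the paternal copy, and its neighbour Usp29, a deubiquitinase gene, are read from one promoter in opposite directions, and 1 region gave both values. That region (chr7:6728887-6730414) had 101 fragments after vehicle and 40 after doxorubicin (4.89 and 2.35 fpm, ratio 0.480, interval 0.324 to 0.699). The vehicle region reached into the 300 bases around the start of both genes, and the doxorubicin region did not. A second region inside Peg3 (chr7:6726549-6728501) had 53 and 39 fragments (2.57 and 2.29 fpm, ratio 0.892), so the lower value was at the end next to the promoter. With the median over all joined regions of each window, an alternative chosen after seeing the data, the log2 ratio was -0.17 for Peg3, 0.0063 for Usp29, -0.20 for Kcnq1ot1, -0.45 for Plagl1 and -0.16 for H13. By that measure 1 member, Snrpn, was lower rather than 5, and none of these 5 passed 1.5-fold.

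Kcnq1ot1 is the long non-coding RNA whose promoter is the ICR of the Kcnq1 domain, and it is read through the body of Kcnq1 on the opposite strand. The region over its start (chr7:143294087-143298471) had 66 fragments after vehicle and 32 after doxorubicin (3.20 and 1.88 fpm, ratio 0.588, interval 0.373 to 0.909). The strongest region of Kcnq1, near its 5′ end (chr7:143116441-143126770), with 94 and 89 fragments, did not share this lower value. Plagl1, a zinc finger gene that acts on cell cycle exit, had 86 and 41 fragments (4.17 and 2.41 fpm, ratio 0.578, interval 0.388 to 0.848) in a region inside the gene (chr10:13105471-13110879). At its start it had 25 and 14 fragments (1.21 and 0.822 fpm, ratio 0.679, interval 0.326 to 1.36). H13 encodes a signal peptide peptidase and holds the imprinted retrogene Mcts2. It had 70 and 38 fragments (3.39 and 2.23 fpm, ratio 0.658, interval 0.431 to 0.990), with the highest summits in different regions of the gene. The first of these had 70 and 34 (ratio 0.589, interval 0.379 to 0.899) and the second 67 and 38 (ratio 0.687, interval 0.449 to 1.04).

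H3K27ac was at least 1.5-fold higher after doxorubicin at 5 of the 33 genes (15.2%), against 24.6% of all genes listed in both treatments. The 5 are Trappc9, Peg10, Phlda2, Zim1 and Mest. Trappc9, a vesicle transport gene with the imprinted RNA gene Peg13 inside it, had 36 fragments after vehicle and 59 after doxorubicin (1.74 and 3.46 fpm, ratio 1.99, interval 1.29 to 3.10). Its highest vehicle region was at the start of Peg13, where Peg13 itself had 36 and 27 fragments (1.74 and 1.58 fpm), and its highest doxorubicin region was at a p53 site elsewhere in the gene. With regions at p53 sites left out, its log2 ratio was -0.14. The retrotransposon-derived gene Peg10 had 19 and 28 fragments (0.920 and 1.64 fpm, ratio 1.79, interval 0.963 to 3.38). These lay in a region (chr6:4746531-4747132) inside the neighbouring gene Sgce and just outside Peg10, so it was in the windows of both. Phlda2, a placental growth gene, had 12 and 17 fragments (0.581 and 0.998 fpm, ratio 1.72, interval 0.773 to 3.94), but in different regions. The region listed in both treatments (chr7:143501872-143502800) had 12 and 12 (ratio 1.21), and the 17 came from one listed after doxorubicin only (chr7:143497743-143499088). With a window of 1000 bp the log2 ratio of Phlda2 was 0.28, within 1.5-fold. The zinc finger gene Zim1 had 12 and 16 (0.581 and 0.939 fpm, ratio 1.62, interval 0.717 to 3.74). Mest, a hydrolase-like gene, had 13 and 17 (0.630 and 0.998 fpm, ratio 1.58, interval 0.725 to 3.55), the 13 in a region listed after vehicle only (chr6:30738429-30738932) and the 17 in one listed after doxorubicin only (chr6:30732872-30733255). The 1 Mest region in both lists had 9 and 14 (ratio 1.89, interval 0.760 to 4.94). Of the 33 genes, the highest H3K27ac region was at one place in both treatments at 24 and at different places at 9, Trappc9, Phlda2, Mest and H13 among them. Places were compared for the members only, so no share over all genes is given. Of the genes past 1.5-fold, only Trappc9 on the higher side had an interval that left out 1, while all 5 on the lower side did. Peg3 and Usp29 among these are the same region, and the intervals of Trappc9 and H13 compare different places. The lower genes had 66 to 101 fragments after vehicle and the higher ones other than Trappc9 12 to 19, and such intervals narrow with more fragments. Among regions of at least 1 fpm, 1 gene was higher rather than 5.

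The other genes with 2 values stayed within 1.5-fold. Among them Mkrn3, a ring finger gene, had 17 and 21 fragments (ratio 1.50, just under the threshold, interval 0.752 to 3.02). The lncRNA H19 had a highest value of 17 after vehicle and 18 after doxorubicin (0.823 and 1.06 fpm), at different places. Where it had 17 after vehicle (chr7:142580546-142582089) it had 9 after doxorubicin (0.528 fpm, ratio 0.642, interval 0.252 to 1.52), and the 18 lay in a region listed after doxorubicin only (chr7:142572811-142574269). The Notch ligand gene Dlk1 also had 17 and 18, in neighbouring regions with 17 and 17 in one and 16 and 18 in the other. Commd1 and the retrogene Zrsr1 inside it shared a region over the start of Zrsr1 (chr11:22970595-22974586) with 55 and 60 fragments (2.66 and 3.52 fpm, ratio 1.32, interval 0.902 to 1.94). Nnat, a brain proteolipid gene inside an intron of Blcap, had 88 and 59 (4.26 and 3.46 fpm) in a region at the start of Blcap rather than its own. Grb10 had 73 and 45 (3.54 and 2.64 fpm, ratio 0.747), and the amino acid transporter gene Slc38a4 55 and 39 (2.66 and 2.29 fpm). Sgce had 37 and 30 (1.79 and 1.76 fpm), in a region other than the one it shares with Peg10. The placental transcription factor gene Ascl2 had 25 and 23 (1.21 and 1.35 fpm). Rian and Mirg, RNA genes downstream of Meg3 that host small RNAs, had 12 and 14 and 19 and 16, all below 1 fpm, those of Mirg in different regions. Over the 33 genes the median log2 ratio was 0.16, and over all genes 0.11.

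Ratios were also read by the level after vehicle, as a description only, since that level is the denominator of the ratio and a region just above the lowest listed pileup cannot be 1.5-fold lower and still be listed. Joined regions in member windows that had at least 3 fpm of H3K27ac after vehicle numbered 11, with a median log2 ratio of -0.51 and 4 of 11 (36.4%) at least 1.5-fold lower. Of all 3982 joined regions at that level the median was -0.29 and 26.5% were lower. Below 0.5 fpm the medians were 0.76 over 10 regions of the members and 0.69 over 4380 regions.

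**Figure D2:**
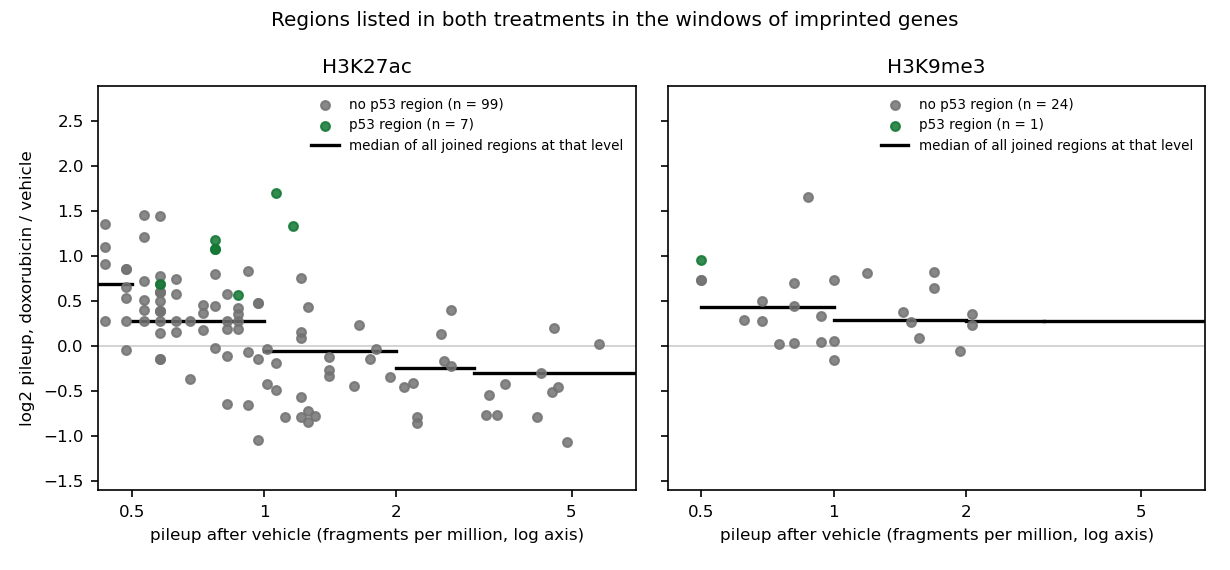
Each point is 1 joined region listed in both treatments in a window of an imprinted gene, for H3K27ac (left) and H3K9me3 (right); the horizontal axis is the vehicle pileup in fpm (log axis) and the vertical axis the log2 ratio of doxorubicin over vehicle. Black lines are medians of all joined regions of the lists at that level, from 0.69 below 0.5 down to -0.29 at 3 and above for H3K27ac; the 7 H3K27ac regions at p53 sites (green) all lie above 0.5.

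Of the 106 joined H3K27ac regions of the windows that were in both lists, 25 (23.6%) were at least 1.5-fold higher after doxorubicin, against 25.9% of all, and 14 (13.2%) were lower, against 10.6%. Each list taken alone, the windows held 150 H3K27ac regions after vehicle and 239 after doxorubicin. Of the 239, 124 (51.9%) had no vehicle counterpart, against 46.5% of all doxorubicin regions, and of the 150, 39 (26.0%) had no doxorubicin counterpart, against 28.8%. Kcnq1 and Trappc9 took many of the added regions, with 12 against 35 in the window of Kcnq1 and 10 against 30 in that of Trappc9. At promoters the order was the other way round. Of the 47 member promoters, 18 (38.3%) were touched by H3K27ac after vehicle and 14 (29.8%) after doxorubicin, while over all promoters the shares were 32.0% and 32.9%. The 6 touched after vehicle only belong to Peg3, Usp29, Snrpn, Phlda2, Dlk1 and Slc38a4. Peg3 and Usp29 share a region. At all of the 6 but Dlk1, the vehicle region overlapped a doxorubicin region that ended short of the promoter. The 2 touched after doxorubicin only belong to Nap1l5 and Ascl2, and Ascl2 had a vehicle region that likewise ended short. The counts at promoters thus depend on where a listed region ends.

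H3K9me3 was listed for 16 of 39 genes after vehicle, against 31.8% of all genes, and for 16 after doxorubicin, against 36.5%. Adding up the shares of each gene's length class would give 15.3 and 17.2 members, so the count was near that of genes this long. The mark was in both lists for 14 genes. Meg3 and Slc22a3 were listed after doxorubicin only, as were 7.33% of all genes, with 11 and 9 fragments (0.764 and 0.625 fpm). Sgce, a sarcoglycan gene next to Peg10, and Slc38a4, an amino acid transporter gene, were listed after vehicle only, as were 2.59% of all genes, with 14 and 10 fragments (0.875 and 0.625 fpm). There was no H3K9me3 region in the windows of 21 genes. These include H19, Mest, Nap1l5, Nnat, Peg3, Usp29, Plagl1, Impact, H13 and Peg13. The others are Cdkn1c, Phlda2, Ascl2, Magel2, Mkrn3, Ndn, Ube3a, Dlk1, Rian, Mirg and Zim1.

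Among the 14 genes with 2 values, H3K9me3 was at least 1.5-fold higher after doxorubicin at 3 (21.4%), against 24.2% of genes so listed, and lower at 1 (7.14%), against 2.44%. Igf2 had 27 fragments after vehicle and 43 after doxorubicin (1.69 and 2.99 fpm, ratio 1.77, interval 1.07 to 2.98) in a region upstream of the gene (chr7:142669303-142671439). A second region beside it, over the furthest upstream start of Igf2 (chr7:142666793-142668932), had 14 and 40 fragments (0.875 and 2.78 fpm, ratio 3.17, interval 1.69 to 6.31). Both Igf2 regions were higher after doxorubicin with an interval that left out 1, and with a window of 1000 bp only the second counts, at a log2 ratio of 1.67. Peg10 had 19 and 30 fragments (1.19 and 2.08 fpm, ratio 1.75, interval 0.955 to 3.30) in its own body, and Trappc9 had 16 and 24 (1.00 and 1.67 fpm, ratio 1.67, interval 0.849 to 3.36). For Zrsr1, 20 fragments after vehicle and 10 after doxorubicin (1.25 and 0.694 fpm, ratio 0.555, interval 0.232 to 1.24) came from 2 different regions. With ratios centred on the median of all regions, none of the 3 higher values passed 1.5-fold.

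At 7 of the 14 genes the highest H3K9me3 region lay at different places in the 2 lists, again with no share over all genes to set beside it. In the body of Kcnq1ot1, within Kcnq1 and far from the Kcnq1ot1 start, the 7 vehicle regions reached 31 fragments and the doxorubicin regions 38. Where the highest vehicle value lay (chr7:143235812-143236996) there were 31 and 27 (1.94 and 1.87 fpm, ratio 0.967), and where the highest doxorubicin value lay (chr7:143223639-143226542) there were 27 and 38 (1.69 and 2.64 fpm, ratio 1.56). Upstream of Inpp5f, a phosphoinositide phosphatase gene, there were 33 and 38 fragments (2.06 and 2.64 fpm, ratio 1.28, interval 0.781 to 2.10). The gene of the splicing protein SmN, Snrpn, had 25 and 24 (1.56 and 1.67 fpm, ratio 1.07, interval 0.583 to 1.95). Commd1 had 23 and 27 in one region and 24 and 26 in the next (ratios 1.30 and 1.20), and Gnas 15 and 14 (0.938 and 0.972 fpm). Over the 14 genes the median log2 ratio was 0.34, and over all genes 0.32.

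Of the 25 joined H3K9me3 regions in both lists, 9 (36.0%) were at least 1.5-fold higher, against 28.4% of all, and 0 lower, against 2.81%. The number of H3K9me3 regions in the windows was 39 after vehicle and 38 after doxorubicin, while the lists held 60836 and 78890. Of the 39, 13 (33.3%) had no doxorubicin counterpart, against 15.6% of the vehicle list. Of the 38, 9 (23.7%) had no vehicle counterpart, against 34.3% of the doxorubicin list. Those 13 were low, with 9 to 20 fragments, and some lay beside a region of the other treatment. At Rasgrf1 a vehicle region of 11 fragments (chr9:89986275-89986535) and a doxorubicin region of 13 (chr9:89985642-89986021) were neighbours.

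Overlap of H3K27ac and H3K9me3, the pattern that an ICR can show when both copies are summed, was seen at 2 of 39 genes after vehicle (Airn and Snrpn), against 8% of all genes. After doxorubicin it was seen at 5 (Airn, Snrpn, Meg3, Kcnq1 and Kcnq1ot1), against 11.5%, and in either treatment at 5, against 13.1%. Adding up the shares of each gene's length class would give 6.85 members in either treatment. The windows follow the genes and not the ICRs, so an ICR more than 5 kb from its gene was not read. Of the H3K27ac regions in the windows, 2 of 150 after vehicle (1.33%) overlapped H3K9me3, against 8.95% of all, and 7 of 239 after doxorubicin (2.93%), against 9.07%. Of the H3K9me3 regions, 2 of 39 after vehicle (5.13%) overlapped H3K27ac, against 12.1% of all, and 7 of 38 after doxorubicin (18.4%), against 12.8%. After doxorubicin the share of H3K27ac regions was thus below that of the whole list and the share of H3K9me3 regions above it. None of the 47 member promoters was touched by both marks in either treatment, as were 0.341% and 0.447% of all promoters. With regions below 1 fpm left out, the overlap was at 0 members after vehicle and 1 after doxorubicin.

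The overlap seen in both treatments at Snrpn lay upstream of its main start (chr7:60162762-60163796). There H3K27ac had 29 fragments after vehicle and 19 after doxorubicin (1.40 and 1.12 fpm) and H3K9me3 13 and 16 (0.813 and 1.11 fpm). Over the start of Snrpn at which the ICR of that domain lies (chr7:60002807-60005440), H3K27ac had 45 and 28 fragments (2.18 and 1.64 fpm), with no H3K9me3 region on it. At a further upstream place (chr7:60351031-60351463) H3K27ac had 27 and 13 fragments (1.31 and 0.763 fpm), and H3K9me3 was listed only after doxorubicin, with 22 (1.53 fpm).

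In Airn, the long non-coding RNA that starts inside Igf2r and silences it on the paternal copy, the overlap lay at a p53 site upstream of the Igf2r start (chr17:12790022-12792055). H3K27ac had 18 and 22 fragments there (0.872 and 1.29 fpm) and H3K9me3 8 and 14 (0.500 and 0.972 fpm). Meg3, a maternally expressed long non-coding RNA, had 2 overlaps after doxorubicin inside the gene (chr12:109562348-109563076 and chr12:109563454-109563961). Their H3K27ac had 18 and 12 fragments (1.06 and 0.704 fpm) and their H3K9me3 10 and 11 (0.694 and 0.764 fpm). Kcnq1 had one in the body of Kcnq1ot1 with 12 fragments of each mark (0.704 and 0.833 fpm), and one at a p53 site with 39 of H3K27ac and 11 of H3K9me3 (2.29 and 0.764 fpm). All these H3K9me3 values were below 1.6 fpm.

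Where the marks did not overlap they could still be close. Among the 14 genes with both marks after vehicle, 2 overlapped and 2 lay within 1000 bp of each other, Igf2r with a gap of 381 bp and Inpp5f with 609 bp. Both of these gaps were next to the gene's start. Igf2r, the receptor that clears IGF2, had H3K27ac at its start with 15 and 17 fragments (0.726 and 0.998 fpm). Just upstream, 1 H3K9me3 region had 18 after vehicle and was not listed after doxorubicin (1.13 fpm), and the next had 11 and 14 (0.688 and 0.972 fpm, ratio 1.41). After doxorubicin 13 genes had both marks, of which 5 overlapped and 3 lay within 1000 bp. Gaps were measured in the windows of the members only. These counts have no share over all genes beside them and are no trait of imprinted genes.

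**Figure D3:**
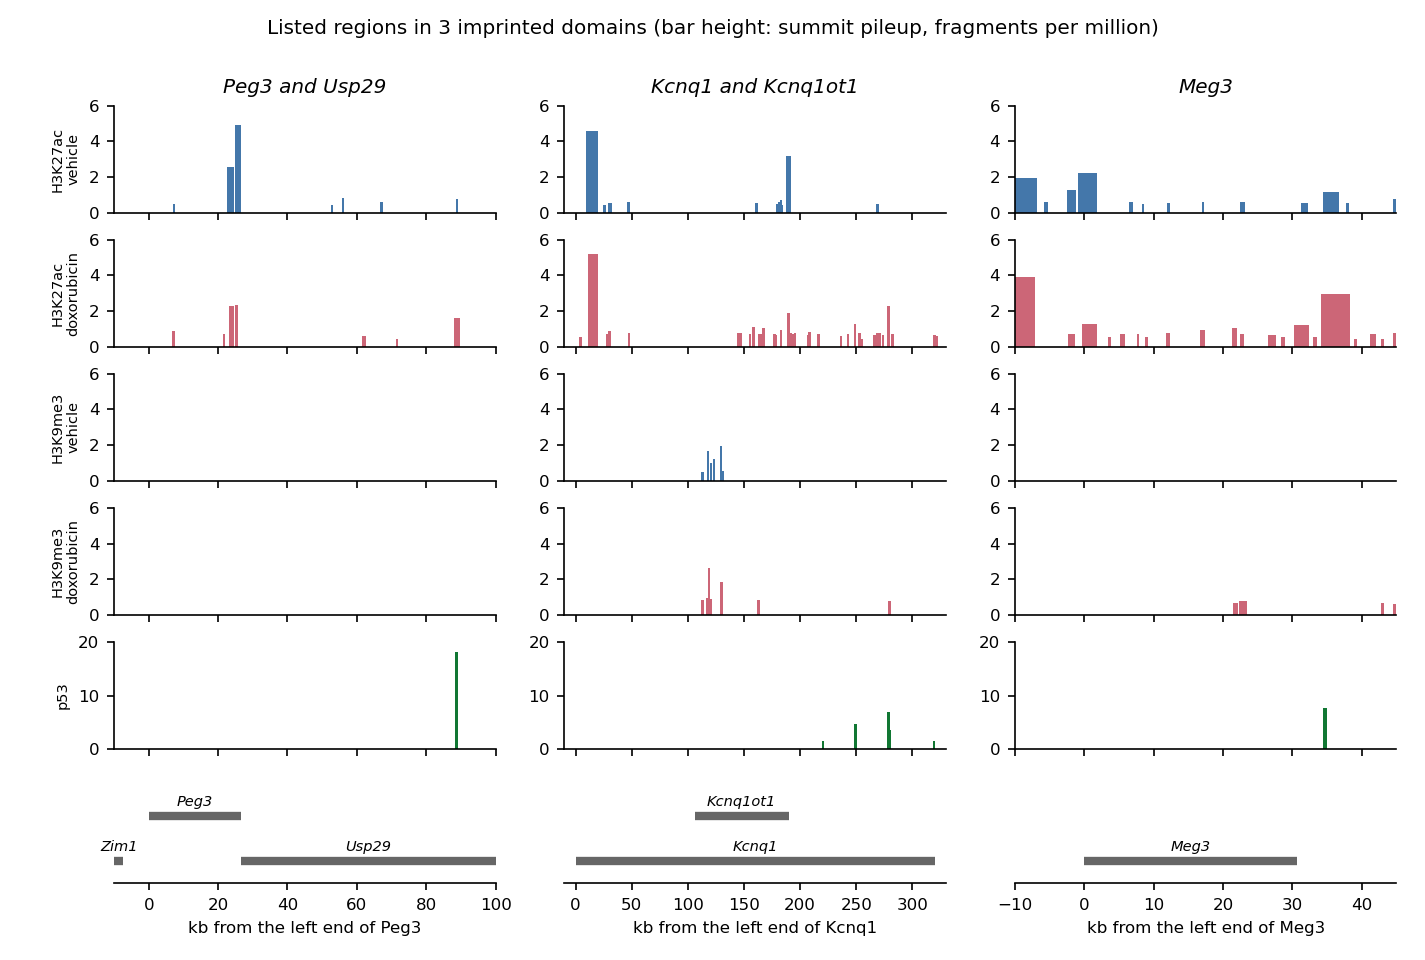
Listed regions in the Peg3, Kcnq1 and Meg3 domains by distance in kb from the left end of the first gene named, with bar height the summit pileup in fpm (histone marks 0 to 6, p53 0 to 20) and the imprinted genes of the set drawn as grey bars. H3K27ac at the shared start of Peg3 and Usp29 is 4.89 after vehicle and 2.35 after doxorubicin with no H3K9me3. Kcnq1 has an H3K27ac region of 2.29 at p53 after doxorubicin only. Meg3 is lower at its start and higher at the p53 site beyond its end. A region upstream of Meg3, outside its window, has 1.94 after vehicle and 3.93 after doxorubicin.

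The transcription factor p53 is stabilised after DNA breaks and binds response elements near its target genes. Its regions without an untagged or input region lay in the windows of 10 of 39 members (25.6%), against 17.7% of all genes. The 10 are Kcnq1 and Trappc9 with 5 regions each, Usp29 with 3, and Meg3, Airn, Igf2r, Grb10, Commd1, Zim1 and Inpp5f with 1 each, 20 regions in all. Adding up the shares of each gene's length class would give 9.24, so the count was near that of genes this long. None of the 20 lay on one of the 47 member promoters. Untagged HA regions lay in the windows of 3 members (Meg3, Usp29 and Gnas), against 4.01% of all genes, and input regions in 0, against 1.51%. No p53 region was in the windows of Peg3, Kcnq1ot1, H19, Igf2 or Cdkn1c.

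The strongest was inside Usp29 (chr7:6792234-6793114), with 53.1-fold enrichment over the input and a pileup of 301 scaled to the input depth, both as the authors' caller gave them. Next came a site in Trappc9 (chr15:73005632-73006491, 39.1-fold), the one in Airn (chr17:12791425-12792111, 31.1-fold) and the one beyond the end of Meg3 (chr12:109575421-109576010, 18.4-fold). A pair of sites of 13.2-fold lay in Kcnq1 (chr7:143355724-143356314 and chr7:143385379-143385897). The weakest was the second of the Usp29 sites (chr7:6825934-6826278) at 2.75-fold. The median fold of the 20 was 7.38, and of all 10857 such p53 regions 7.77.

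H3K27ac lay on 8 of the 20 p53 regions after vehicle (40.0%, against 41.2% of all) and on 17 after doxorubicin (85.0%, against 71.7%). It was there after doxorubicin only at 10 (50.0%, against 31.0%), after vehicle only at 1, and in neither list at 2, in Trappc9 and Kcnq1. Joined into H3K27ac regions these gave 17, of which 7 were in both lists, and 6 of the 7 were at least 1.5-fold higher after doxorubicin. The median log2 ratio of the 7 was 1.08, near the 1.01 of all H3K27ac regions at p53. In the member windows away from p53 the median was 0.18 over 99 regions, with 19 higher and 14 lower. A higher H3K27ac level at p53 sites is a feature of the whole lists, so these regions are no independent evidence of it.

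At the Trappc9 site of 39.1-fold, H3K27ac had 22 fragments after vehicle and 59 after doxorubicin (1.07 and 3.46 fpm, ratio 3.25, interval 1.96 to 5.57). Beyond the end of Meg3 it had 24 and 50 (1.16 and 2.93 fpm, ratio 2.52, interval 1.52 to 4.30), while over the start of Meg3 (chr12:109540113-109542861) it had 46 and 22 (2.23 and 1.29 fpm, ratio 0.580, interval 0.332 to 0.983). Meg3 thus held a lower and a higher region in one window, and its gene-level ratio of 1.32 compares these different places. In Usp29 the strongest p53 site had 16 and 28 fragments (0.775 and 1.64 fpm, ratio 2.12, interval 1.11 to 4.20), against a lower value at the start it shares with Peg3. A site in Commd1 had 16 and 30 (0.775 and 1.76 fpm, ratio 2.27, interval 1.20 to 4.46). Another in Trappc9 had 16 and 28, as in Usp29.

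Other p53 sites had no vehicle H3K27ac region. The largest of these was in Kcnq1 (chr7:143384487-143386973), where 1 region of 39 fragments (2.29 fpm) after doxorubicin covered 2 p53 sites. A site at the 3′ end of Trappc9 had 28 (1.64 fpm) and the other 13.2-fold Kcnq1 site 22 (1.29 fpm). The remaining ones in Igf2r, Inpp5f, Usp29, Kcnq1 and Trappc9 had 11 to 20 fragments. Zim1 had 12 and 16 fragments at its site, with a ratio of 1.62, and Airn 18 and 22, with a ratio of 1.48 that did not reach 1.5-fold. Grb10, a growth-restraining adaptor gene, was the exception, with 14 fragments after vehicle (0.678 fpm) and none listed after doxorubicin at its p53 site. H3K9me3 lay on 1 of the 20 regions after vehicle and on 2 after doxorubicin (5.00% and 10.0%, against 17.7% and 23.0% of all p53 regions).

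**Figure D4:**
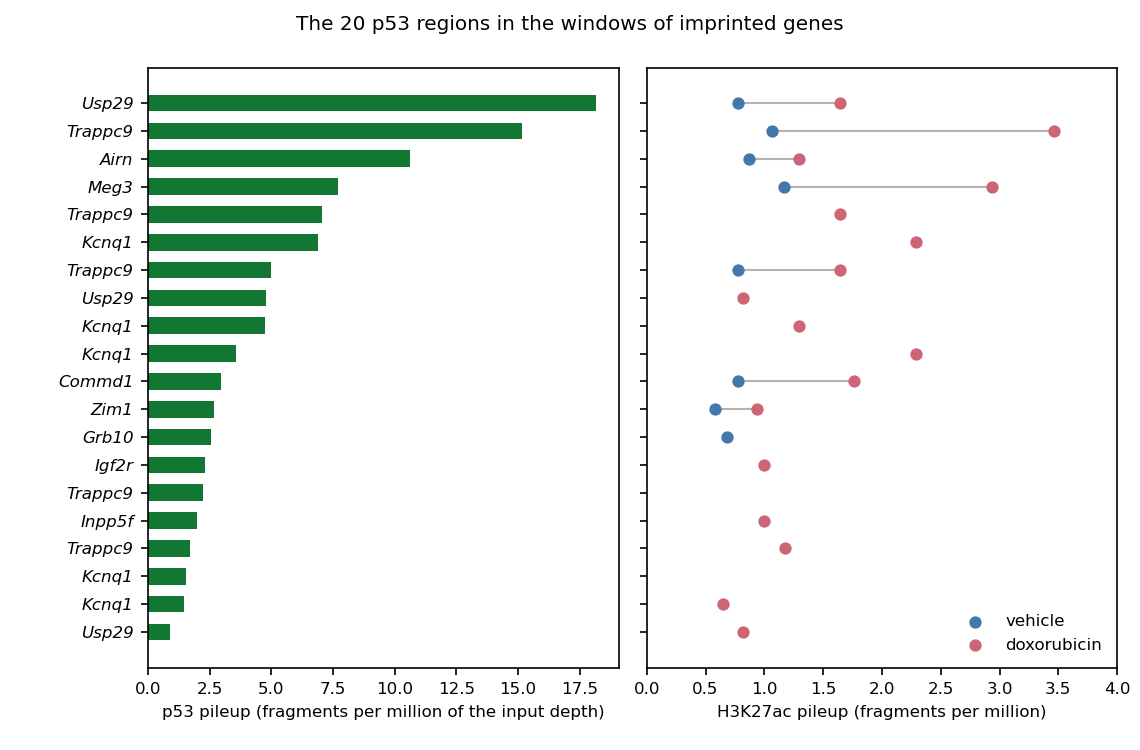
The 20 p53 regions in windows of imprinted genes, ordered by p53 pileup (left, fpm of the input depth, to which the authors' caller scaled it), with the H3K27ac pileup of the overlapping region after vehicle (blue) and doxorubicin (red) on the right in fpm; a missing point means no overlapping region in that list. H3K27ac is present on 8 regions after vehicle and 17 after doxorubicin, and each of the 7 with both points is higher after doxorubicin.

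Genes that keep or erase imprints carried H3K27ac for 18 of 20 after vehicle and 19 of 20 after doxorubicin, against 60.8% and 68.1% of all genes. Of the 18 with 2 values, 4 were at least 1.5-fold higher, against 24.6%, and 5 lower, against 10.5%, with a median log2 ratio of -0.12 against 0.11. The higher ones were the methylcytosine dioxygenase gene Tet3 (1.11 to 3.05 fpm), the DNA methyltransferase genes Dnmt1 (2.03 to 3.23 fpm) and Dnmt3a (1.02 to 2.00 fpm), and the histone demethylase gene Kdm1b (0.436 to 1.29 fpm). The lower ones were Setdb1 (3.83 to 2.23 fpm), Uhrf1, which guides DNMT1 to hemimethylated DNA (7.07 to 3.76 fpm), Cbx5 (6.49 to 3.99 fpm), Tet2 and Dppa3. Setdb1, Uhrf1 and Cbx5 had at least 3 fpm after vehicle, a level at which 26.5% of all joined regions were lower. Dppa3 had only 21 and 9 fragments. No counting intervals are given for these 20 genes, and whether their highest regions lay at the same place was not read. Zfp57 had 152 and 101 fragments (7.36 and 5.93 fpm) and Trim28 68 and 69 (3.29 and 4.05 fpm), both within 1.5-fold. Among these 20, 5 had a p53 region, against 17.7% of all genes, a share not adjusted for gene length. The 5 were Tet3, Dnmt1, Dnmt3a, Tet1 and Zfp445. H3K27ac at Tet1 stayed within 1.5-fold (7.80 to 10.5 fpm), and Kdm1b had no p53 region. Zfp445 had H3K9me3 in both treatments (3.25 and 3.68 fpm) and no H3K27ac.

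Of 32 further imprinted genes, 30 were found, and 22 had H3K27ac after vehicle and 23 after doxorubicin, against 60.8% and 68.1% of all genes. Among the 21 with 2 values, 5 were at least 1.5-fold higher (Sfmbt2, Herc3, Zim2, Cd81 and Rtl1), against 24.6%, and 0 lower, against 10.5%, with a median log2 ratio of 0.12 against 0.11. H3K9me3 was listed for 11 and 14 of the 30, against 31.8% and 36.5%, and was higher at 3 of the 11 with 2 values, against 24.2%. A p53 region lay at 12 of the 30, against 17.7%, and both marks overlapped at 6 after vehicle and 9 after doxorubicin, against 8% and 11.5%. The 12 are not all separate sites. Gpr1 and Zdbf2 had the same highest p53 pileup, Rtl1 that of the Meg3 site and Zim2 that of a Usp29 site. These shares are not adjusted for gene length.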

How the data were processed

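Reads were aligned with Bowtie2 2.2.6 to mm10, per the submitters' processing notes. Per the file headers, the authors ran MACS 2.2.5 on 2 pooled libraries per list with q at most 0.05, without a control for the histone and input lists and against the input for the HA lists. The deposited signal is the fragment pileup at a summit, scaled by MACS to the input depth in the HA lists. Deposited q values are −log10, and the deposited fold is a ratio of pileup to background.

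Summits of 1 interval were joined, taking the highest pileup. A gene had a mark when a region touched the gene or 5000 bp around it, and its level was the highest pileup per 1000000 fragments. Regions of the 2 treatments that overlapped by at least 1 bp were joined for ratios. Python 3.11.15, pandas 2.3.3 and scipy 1.17.1 were used, and the overlap step was checked against bedtools on simulated lists. Values were given for every member with overlapping marks, a p53 region, a ratio past 1.5-fold or a mark in 1 treatment, and others by range. The members and gene lists were chosen with earlier results of these data known. No test was made, as each group is 1 pooled list, and intervals cover counting error only. Alternatives changed the window, the q and pileup minimum, the overlap, input regions and centring.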

Additional observations from a re-analysis of the deposited data

How the results depend on the processing

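Leaving out regions in the input list could change nothing, since 0 of 39 windows hold one. Of 76 recounts under the other settings, 52 stayed within 1.5 times the value given and 24 moved further. Of 82 ratios of named genes, 78 moved by less than their counting interval, but many of these could hardly move. The 10 ratios left at the q minimum and the 9 left at the pileup minimum come from the same highest regions. Genes without both values at a minimum are not among the 82. Centring shifts all ratios of a mark by a constant. The 78 is therefore no measure of how stable the ratios are. With a window of 1000 bp the members lower in H3K9me3 were 0. With 10000 bp those higher were 8 for H3K27ac and 5 for H3K9me3. At a −log10 q of at least 5, both marks overlapped at 1 member after vehicle and 2 after doxorubicin, 2 were higher in H3K27ac, 0 lower in H3K9me3, and treatment-only regions were 19 (H3K27ac, vehicle), 50 (H3K27ac, doxorubicin) and 4 (H3K9me3, vehicle). At a pileup of at least 1 per 1000000 fragments, 20 members had H3K27ac after vehicle and 8 had H3K9me3 after doxorubicin, the marks overlapped at 0 and 1, 1 was higher in H3K27ac and 0 lower in H3K9me3, and of H3K27ac 11 regions were in vehicle alone and 28 in doxorubicin alone, of H3K9me3 4 and 5. These minimums leave fewer regions to count. Centred on the median of all regions, 3 were higher in H3K27ac and 0 in H3K9me3. In alternatives chosen after seeing the data, the median over the joined regions of a window gave 1 member lower in H3K27ac, 0 lower in H3K9me3, and log2 ratios of 0.0063 for Usp29 and -0.17 for Peg3, and leaving out regions at p53 gave -0.14 for Trappc9. The cause of the other moves was not tested. No paired analysis was possible because the 2 libraries of a group had been merged before calling. Pileups of 7 to 20 fragments gave wide counting intervals, as at Mest and Zim1.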

Other observations

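Rtl1, the retrotransposon-derived gene beside Meg3 that is expressed from the paternal copy, had more overlaps of the marks than any of the 39 genes. It had 3 overlaps of an H3K27ac with an H3K9me3 region after vehicle and 6 after doxorubicin. Its H3K9me3 had 26 and 30 fragments (1.63 and 2.08 fpm), and its H3K27ac, 24 and 50 fragments, came from the p53 site that it shares with the window of Meg3. Ppp1r9a and Snhg14, among the further imprinted genes, had H3K9me3 and input regions in the same window. Whether these lay close together was not read. Ppp1r9a had 700 and 716 fragments of H3K9me3 (43.8 and 49.7 fpm), with 1 input region and 2 untagged HA regions in its window. The window of Snhg14, the long non-coding RNA that runs from Snrpn across Ube3a, held 57 and 100 H3K9me3 regions, with 15 input regions and 28 untagged HA regions. Its highest H3K9me3 had 56 and 77 fragments (3.50 and 5.35 fpm), and it held 3 and 15 overlaps of the marks.

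Of the untagged HA regions at the 39 genes, the one at Meg3 (chr12:109541894-109542322, 7.41-fold over the input as the authors' caller gave it) lay within the H3K27ac region over its start. The one at Usp29 (chr7:6937122-6937525) had 11.6-fold, and none of the 3 overlapped a p53 region.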
